A study of Mus musculus with 20 samples.

Results

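The genes described here are the thrombin receptors F2r and F2rl3 and the platelet genes Itga2b, Pf4 and Gp9, measured in sorted mouse muscle and bone marrow cells. They were chosen by name, with earlier results of these arrays known, and every probe set that the array's probe-to-gene table gives a member's symbol was taken. This gave 6 of 12422 probe sets, for 4 of the 5 genes: 3 probe sets of F2r and 1 each of F2rl3, Pf4 and Gp9, all 6 among the 10310 kept by the filter on dim values. Itga2b is named by no probe set of that table and has no value here. Because the levels of these genes were known when they were chosen, their values are given as a description, with standard errors and no test.

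Total RNA of adult C57BL/10SnJ mouse cells was hybridised to 20 Affymetrix arrays, 5 in each group. The groups were side population (SP) and main population (MP) cells of skeletal muscle and SP and MP cells of bone marrow; SP cells are those that a sort separates by their ability to pump out a DNA-binding dye, and MP cells keep it. All groups came from the same strain, and the labels name no treatment, sex or pooling and do not say whether the 5 samples of a group were separate animals, so p-values cover no more than how these samples vary, possibly for technical reasons. Values are log2 signal after quantile normalization, with a floor at 6.71 (a signal of 104.8) below which a value has no order.

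Thrombin is the protease that ends the coagulation cascade, and it acts on cells by cutting the outer end of protease-activated receptors, which exposes a tethered ligand that turns the receptor on. F2r encodes PAR1, the main thrombin receptor of human platelets and of endothelium and fibroblasts, and F2rl3 encodes PAR4, through which mouse platelets respond to thrombin with PAR3 (F2rl2) as its helper. Itga2b encodes the alpha chain of the platelet fibrinogen receptor, Pf4 a chemokine stored in platelet granules, and Gp9 a subunit of the receptor complex that binds von Willebrand factor, and all 3 are made by megakaryocytes, the marrow cells that shed platelets.

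The start regions of the 2 receptor genes are shown because F2rl3 and 1 of the 3 probe sets of F2r had the same order of groups, while the upstream sequences of the genes differ. The other probe sets of F2r did not show that order, and which probe set reads the F2r transcript best could not be settled. Each is the 250 bases before the gene's start, 5′ to 3′ on the gene's own strand, from RefSeq for the mouse build GRCm38.p6; F2r lies on the minus strand at chr13:95618467-95618716 and F2rl3 on the plus strand at chr8:72761409-72761658. Capitals mark the 4 motifs searched on both strands: GATAA (the core bound by GATA factors), CAGGAAG (an ETS-type site), TGAGTCA (an AP-1 site) and GGGCGG (a GC box), none of which overlaps another in these windows.
F2r: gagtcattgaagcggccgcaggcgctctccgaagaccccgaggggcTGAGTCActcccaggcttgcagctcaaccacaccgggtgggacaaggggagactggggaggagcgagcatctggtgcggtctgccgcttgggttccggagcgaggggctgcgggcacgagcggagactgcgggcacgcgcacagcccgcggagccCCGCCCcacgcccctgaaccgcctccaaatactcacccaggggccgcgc
F2rl3: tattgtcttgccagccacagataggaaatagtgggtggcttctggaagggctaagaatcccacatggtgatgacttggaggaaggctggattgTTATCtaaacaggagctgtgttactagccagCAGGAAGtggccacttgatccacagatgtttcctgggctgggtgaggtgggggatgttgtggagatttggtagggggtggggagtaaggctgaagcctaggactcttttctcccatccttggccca

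The F2r window was 70.8% G and C with 24 CpG dinucleotides, and held TGAGTCA 204 bases and GGGCGG, on the other strand, 49 bases before the start. The F2rl3 window was 52.0% G and C with 0 CpG dinucleotides, and held GATAA, on the other strand, 157 bases and CAGGAAG 126 bases before the start. Neither window held any of the 4 motifs found in the other. Of the other windows of these genes, that of Gp9 held GATAA 43 bases before the start, and those of Pf4 and Itga2b held none of the 4. Among 32851 RefSeq windows of the same length the median was 52.4% G and C with 6 CpG dinucleotides, and GATAA stood in 22.6%, CAGGAAG in 10.8%, TGAGTCA in 4.5% and GGGCGG in 32.7% of them. The motifs were chosen after the sequences were seen, and a match is a stretch of letters, not a shown binding site.

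F2r, read by probe set 95474_at, was lower in muscle SP than in muscle MP cells and higher in bone marrow SP than in bone marrow MP cells. In muscle SP cells its log2 signal was 13.52, 12.62, 12.49, 11.38 and 11.55 in replicates 1 to 5, against 13.52, 13.95, 13.67, 14.23 and 13.76 in muscle MP cells. Apart from muscle SP replicate 1, which met the lowest MP value, the SP arrays lay below every MP array, and replicates 4 and 5 were the lowest. The means were 12.31 ± 0.87 in muscle SP and 13.83 ± 0.28 in muscle MP cells (SD, n = 5 each), a log2 difference of -1.51 ± 0.33 (SE, 95% interval -2.19 to -0.84), or 2.85-fold lower. In bone marrow SP cells the signal was 13.58, 14.35, 13.98, 14.88 and 15.07, against 11.75, 11.71, 11.53, 11.76 and 11.36 in bone marrow MP cells. The groups did not overlap, and the MP arrays were the most alike of any group. The means were 14.37 ± 0.62 in marrow SP and 11.62 ± 0.17 in marrow MP cells, a log2 difference of 2.75 ± 0.33 (95% interval 2.07 to 3.42), or 6.71-fold higher. In bulk samples such as these, fewer cells that express a gene and less of its RNA per cell cannot be told apart.

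Across the 4 groups the order for F2r was marrow SP, muscle MP, muscle SP and marrow MP, high to low. The first pair of neighbours overlapped, with 13.58 to 15.07 in marrow SP and 13.52 to 14.23 in muscle MP cells, and so did the last, with 11.38 to 13.52 in muscle SP and 11.36 to 11.76 in marrow MP cells. Muscle SP cells were thus 2.06 ± 0.33 lower than marrow SP cells on the log2 scale (4.16-fold), and muscle MP cells 2.20 ± 0.33 higher than marrow MP cells (4.60-fold), both without overlap. The SP against MP difference in muscle minus that in marrow was -4.26 ± 0.46.

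The other 2 probe sets of F2r did not show this pattern. Probe set 92267_at had 9.28, 8.59, 8.61, 8.78 and 8.62 in muscle SP cells, against 8.78, 9.22, 9.03, 8.48 and 9.09 in muscle MP cells. It had 9.42, 8.91, 9.36, 9.76 and 9.09 in marrow SP cells, against 9.77, 9.40, 9.59, 9.60 and 9.65 in marrow MP cells. In both tissues SP and MP arrays overlapped, with log2 differences of -0.15 ± 0.19 in muscle and -0.29 ± 0.19 in marrow, the second of which was 0.09 when the arrays were not normalized further. The 95% interval of its marrow difference was -0.68 to 0.10. Between tissues it was -0.53 ± 0.19 in SP cells, with overlap, and -0.68 ± 0.19 in MP cells, without overlap and opposite in sign to 95474_at. Probe set 95313_at lay at or near the floor: 7 of its 20 values were at 6.71, the highest was 7.44 in muscle SP replicate 1, and its 4 group differences lay between -0.09 and 0.04 (SE 0.18).
Over the 20 arrays the log2 signal of 95474_at correlated with that of 92267_at at Pearson r = -0.12 and with that of 95313_at at r = 0.25, and 92267_at with 95313_at at r = 0.26. The files give no probe positions, so which transcript ends or forms each probe set reads is not known here, and statements on F2r below are on 95474_at.

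**Figure D1:**
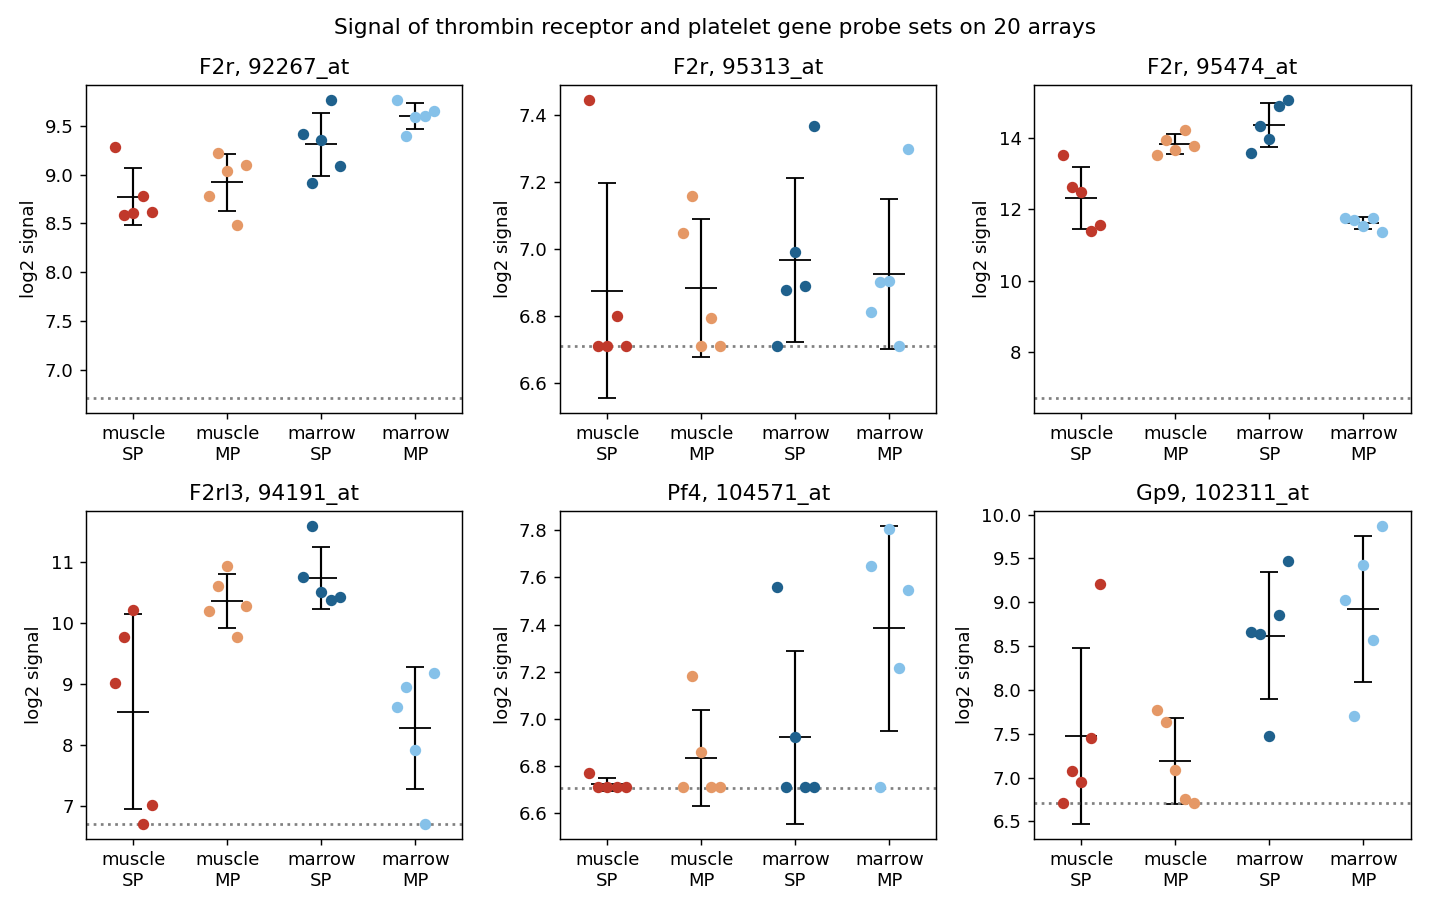
Log2 signal of each of the 6 probe sets on the 20 arrays, with muscle SP, muscle MP, marrow SP and marrow MP on the x axis; points are arrays, bars are the mean and SD of 5, and the dotted line is the floor at 6.71. For F2r 95474_at and F2rl3 the mean of muscle SP lies below that of muscle MP and the mean of marrow SP above that of marrow MP, while the other 4 probe sets overlap between SP and MP in both tissues.

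F2rl3 had the same order of groups as F2r. Its log2 signal was 9.02, 9.76, 10.20, 6.71 and 7.02 in muscle SP cells, against 10.20, 10.60, 10.93, 9.77 and 10.27 in muscle MP cells. Muscle SP replicate 4 was at the floor and replicate 5 close to it, replicate 3 lay within the MP range, and the groups overlapped. The means were 8.54 ± 1.59 in muscle SP and 10.36 ± 0.44 in muscle MP cells, a log2 difference of -1.81 ± 0.55 (95% interval -2.96 to -0.66), or 3.51-fold lower; with 1 SP array at the floor, the fold is understated. In marrow SP cells the signal was 10.75, 11.59, 10.50, 10.37 and 10.42, against 8.62, 8.95, 7.92, 6.71 and 9.18 in marrow MP cells. Every marrow SP array lay above every MP array. The means were 10.73 ± 0.50 in marrow SP and 8.28 ± 1.00 in marrow MP cells, a log2 difference of 2.45 ± 0.55 (95% interval 1.30 to 3.60), or 5.47-fold higher; 1 MP array was at the floor, so this fold is understated as well.

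High to low, the order for F2rl3 was marrow SP, muscle MP, muscle SP and marrow MP. The ranges of the first pair overlapped, as did those of the last pair. Muscle SP cells were 2.18 ± 0.55 lower than marrow SP cells (4.54-fold) and muscle MP cells 2.08 ± 0.55 higher than marrow MP cells (4.23-fold), both without overlap and both understated by the floored arrays, and the muscle minus the marrow difference of SP against MP was -4.26 ± 0.78. The log2 signals of F2rl3 and F2r correlated over the 20 arrays at r = 0.79, and at r = 0.36 after each group's mean was removed. F2rl3 was the probe set ranked 24 of 9092 by its correlation with F2r. The points of these correlations share the same RNA and array, so array quality and cell make-up enter both values.

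**Figure D2:**
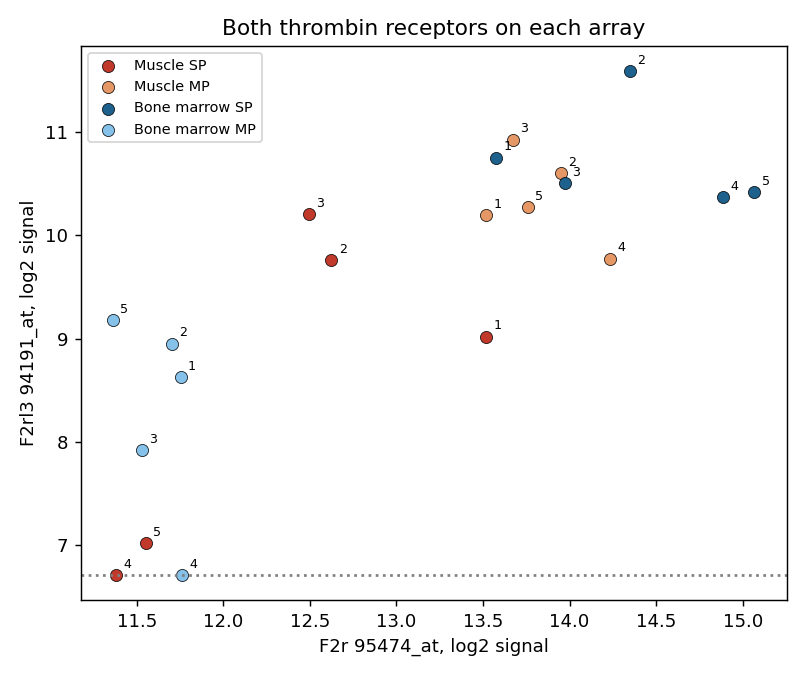
F2rl3 (y axis) against F2r 95474_at (x axis), both in log2 signal, for 20 arrays coloured by group and numbered by replicate, with the floor dotted. Marrow SP and muscle MP arrays lie at the upper right, marrow MP arrays at the lower left, and muscle SP replicates 4 and 5 near the floor for F2rl3.

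The platelet genes did not follow the receptors. Gp9 had 6.71, 7.07, 6.95, 7.45 and 9.21 in muscle SP cells, against 7.78, 7.63, 7.08, 6.76 and 6.71 in muscle MP cells. It had 8.66, 8.63, 7.47, 8.86 and 9.47 in marrow SP cells, against 9.03, 7.70, 9.42, 8.57 and 9.87 in marrow MP cells. SP and MP arrays overlapped in both tissues, and 1 array, muscle SP replicate 5, stood above the rest of its group. The differences were 0.29 ± 0.44 in muscle, which turned to -0.15 without that array, and -0.30 ± 0.44 in marrow, which was 0.17 when arrays were not normalized further. Muscle cells were lower than marrow cells, by 1.14 ± 0.44 in SP (2.20-fold) and 1.73 ± 0.44 in MP (3.31-fold), although the groups overlapped in both. The order was marrow MP, marrow SP, muscle SP and muscle MP, with overlap between each pair of neighbours.

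Pf4 was dim throughout, with 11 of its 20 values at the floor. Muscle SP replicate 1 had 6.77 and the other 4 muscle SP arrays were at 6.71, against 6.71, 7.18, 6.86, 6.71 and 6.71 in muscle MP cells. Marrow SP cells had 7.56, 6.71, 6.93, 6.71 and 6.71, against 7.65, 6.71, 7.80, 7.22 and 7.55 in marrow MP cells. Marrow MP cells held the most arrays above the floor, 4 of 5, but every pair of groups overlapped. The median deposited signal, before normalization and floor, was 59.5 in muscle SP and 80.8 in muscle MP cells, and 108.2 in marrow SP and 172.9 in marrow MP cells. On the floored scale the differences were -0.11 ± 0.20 in muscle and -0.46 ± 0.20 in marrow, and the between-tissue differences were -0.20 ± 0.20 in SP and -0.55 ± 0.20 in MP cells.

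Read together, the values of the SP and MP arrays did not overlap for 0 of the 6 probe sets in muscle and for 2 in marrow, where all tested probe sets gave 10.1% and 20.1%. Between tissues 2 did not overlap in SP cells and 3 in MP cells, where all tested gave 23.4% and 39.7%. Since the members were picked with these levels known, nothing is read from these counts.

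**Figure D3:**
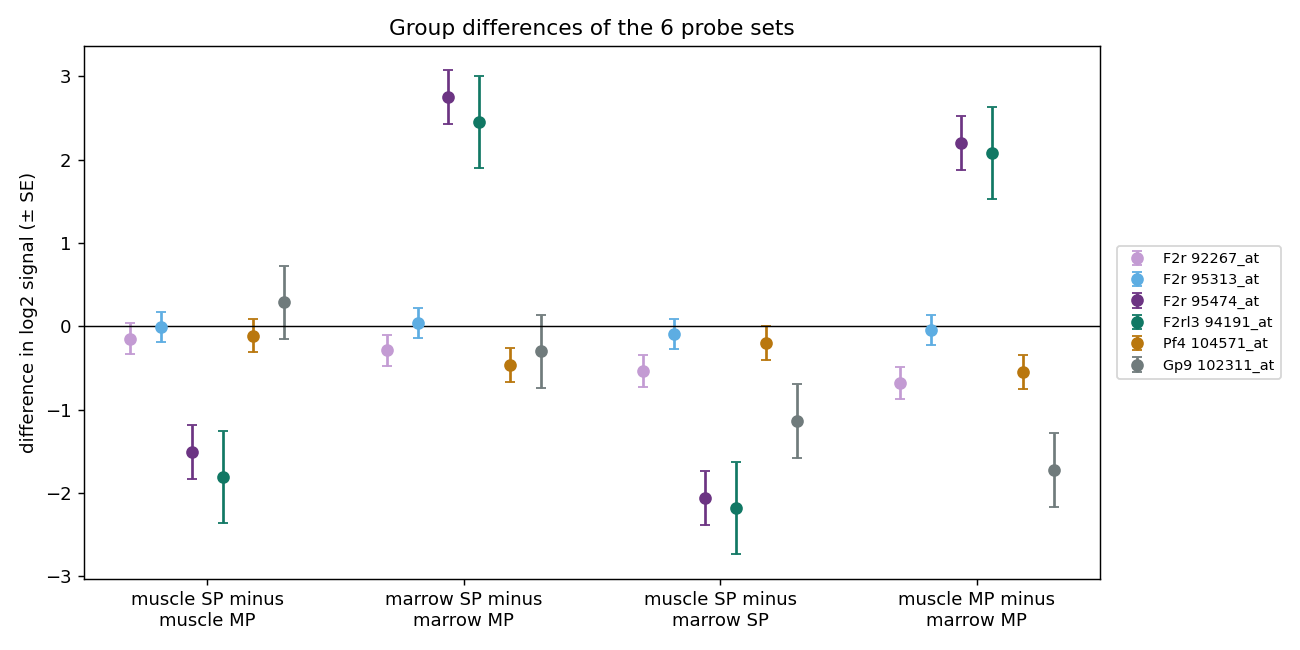
Difference in log2 signal (y axis, with SE) of each of the 6 probe sets in 4 comparisons (x axis), each being the first named group minus the second. F2r 95474_at and F2rl3 lie below 0 for muscle SP minus muscle MP and muscle SP minus marrow SP and above 0 in the other 2 comparisons, while the other 2 probe sets of F2r stay within 0.68 of 0.

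The label of platelet genes was checked against defining markers of megakaryocytes and platelets. Of 10 such markers only Itgb3, Gp1bb and Gp5 have a named probe set, and all 3 were dim on most arrays. Itgb3, the beta chain that pairs with the Itga2b product, was above the floor on 0 of 10 muscle arrays, 1 of 5 marrow SP arrays and 2 of 5 marrow MP arrays, and did not exceed 7.17. Gp1bb, a partner of Gp9, was above it on 2 marrow SP arrays (highest 8.33) and on no other array. Gp5, the remaining subunit measured of that complex, was above it on 3 marrow SP arrays by probe set 100740_at (highest 8.42) and on none elsewhere. Its other probe set, 161585_at, averaged 7.22 ± 0.27 in muscle SP, 7.06 ± 0.30 in muscle MP, 7.49 ± 0.38 in marrow SP and 7.53 ± 0.26 in marrow MP cells. The SP against MP differences of 161585_at were 0.16 ± 0.20 in muscle (adjusted p = 0.705) and -0.03 ± 0.20 in marrow (adjusted p = 0.938), and neither passed. Itgb3, Gp1bb and Gp5 100740_at were thus at or near the floor in muscle and in marrow MP cells. Gp5 161585_at was dim but above the floor on all arrays but 1, in muscle MP cells. On some marrow SP arrays Gp1bb and Gp5 100740_at stood above the floor, up to 8.33 and 8.42.

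Of the relatives and partners of these genes, 4 of the 6 with a probe set could be tested. F2rl2, the PAR3 gene, had an SP against MP difference of -0.26 ± 0.27 in muscle (adjusted p = 0.627) and 0.06 ± 0.27 in marrow (adjusted p = 0.912), and neither passed. It was lower in muscle SP than in marrow SP cells by 0.81 ± 0.27 (adjusted p = 0.0193), a call lost without muscle SP replicate 3 (-0.72, adjusted p = 0.0516) or 5 (-0.64, adjusted p = 0.0685) and when only the compared groups were fitted (adjusted p = 0.0636). Itgav, the other alpha chain that pairs with Itgb3, rose in marrow SP cells by 2.38 ± 0.26 on probe set 104386_f_at (adjusted p = 3.65e-07). In muscle the difference was -0.33 ± 0.26 (adjusted p = 0.488). It was 1.12 ± 0.26 lower in muscle SP than in marrow SP cells (adjusted p = 0.00137; 0.0527 with arrays scaled to the same median) and 1.59 ± 0.26 higher in muscle MP than in marrow MP cells (adjusted p = 2.12e-05). Its other probe sets had 0.24 and -0.11 in marrow and did not pass, and the suffix of 104386_f_at marks a set that can bind related transcripts. Vwf is described with the platelet genes.

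Other megakaryocyte and platelet genes moved unevenly. In muscle 6 of the 20 tested rose and 0 fell, where 5.1% of all probe sets tested rose and 6.64% fell; the list's median log2 difference was 0.24 against 0.03 for all tested. Selp, the P-selectin of platelet granules and endothelium, averaged 13.05 ± 0.76 in muscle SP and 10.47 ± 0.10 in muscle MP cells, a difference of 2.58 ± 0.39 (adjusted p = 9.24e-05). Vwf, the adhesive protein bound by the Gp9 complex and made by endothelium too, averaged 14.37 ± 1.02 in muscle SP and 12.13 ± 0.23 in muscle MP cells, a difference of 2.24 ± 0.44 (adjusted p = 0.00155). Values of Vwf here and below are from probe set 103499_at. Its second probe set, 97052_at, was at the floor on every array. Clu, a secreted chaperone, rose by 1.27 ± 0.23 (adjusted p = 0.000726) and Alox12, the platelet lipoxygenase, by 1.18 ± 0.25 (adjusted p = 0.0025). F5, coagulation factor V, rose by 0.89 ± 0.28 (adjusted p = 0.0424) and Nbeal2, a gene of alpha granule formation, by 0.85 ± 0.24 (adjusted p = 0.0241). With only the muscle arrays fitted 3 genes passed, since Alox12 (adjusted p = 0.05), F5 (0.14) and Nbeal2 (0.104) did not. F5 also lost its call without muscle SP replicate 4 (0.68, adjusted p = 0.123) or 5 (0.76, 0.104), without muscle MP replicate 2, 3 or 4 (0.78 each, 0.107, 0.112 and 0.113), and without marrow SP replicate 2 or marrow MP replicate 5 (0.88 each, 0.05 and 0.0501). With the floor at the 40th percentile the F5 difference was 0.27 (adjusted p = 0.393), and its call was also lost with the GAPDH ratio as a covariate (1.07, 0.0547) and with no filter (0.89, 0.069). Nbeal2 lost it without muscle SP replicate 3 (0.57, adjusted p = 0.0616) and without muscle MP replicate 2, 3 or 4 (0.76, 0.77 and 0.83; 0.0678, 0.0688 and 0.0527).

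In muscle SP cells these rises came with some markers of endothelium, which makes Selp and Vwf as well, while most did not pass. Of 17 endothelial markers 3 rose, 0 fell and 14 did not pass, where 5.1% of all probe sets rose and 6.64% fell. Ptprb rose by 1.77 ± 0.24 (adjusted p = 2.47e-05) and Eng by 1.06 ± 0.22 (adjusted p = 0.00239). Cdh5 averaged 14.49 ± 0.41 in muscle SP and 14.44 ± 0.14 in muscle MP cells. The summed endothelial signal ran from 169050 to 241203 in muscle SP arrays and from 147551 to 176427 in muscle MP arrays. These ranges overlapped, and no marker was at the floor on all arrays of either group. The part of endothelial cells in the Selp and Vwf differences was not tested.

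In marrow 6 of the 20 rose and 3 fell, where 15.4% of all probe sets rose and 14.8% fell, and the median was 0.02 both for the list and for all tested. Of all calls in marrow 50.9% were higher in SP cells, against 72.2% when arrays were not normalized further and 32.9% when arrays were scaled to the same median, which moved the median of all probe sets to 0.31 and -0.08. Vwf averaged 10.31 ± 1.14 in marrow SP and 6.91 ± 0.28 in marrow MP cells, a difference of 3.40 ± 0.44 (adjusted p = 4.09e-06). Cavin2, a protein of caveolae and a platelet kinase substrate, rose by 2.87 ± 0.44 (adjusted p = 2.83e-05) and Gng11, a G protein gamma chain, by 1.11 ± 0.26 (adjusted p = 0.00255; 0.52 and 0.0538 with the floor at the 40th percentile). On 3 of 5 marrow MP arrays Vwf was at the floor, as was Cavin2 on 3, so both differences are understated. Tbxa2r, the thromboxane receptor, rose by 1.05 ± 0.32 (adjusted p = 0.0164), Clu by 0.65 ± 0.23 (adjusted p = 0.036) and Tbxas1, thromboxane synthase, by 0.46 ± 0.15 (adjusted p = 0.0183). These last 3 calls were lost without the 3 arrays of highest GAPDH ratio (adjusted p = 0.0544 to 0.131), and also without single arrays. Tbxa2r lost its call without marrow SP replicate 4 (0.90, 0.0509) or marrow MP replicate 5 (0.84, 0.0572), and Tbxas1 without marrow MP replicate 3 (0.42, 0.0511) and with arrays scaled to the same median (0.27, 0.169). Clu lost it without marrow SP replicate 2 (0.58, 0.0883) or 4 (0.49, 0.114) and without marrow MP replicate 3 (0.49, 0.121) or 5 (0.65, 0.0576). With the floor at the 40th percentile the Clu difference was 0.21 (0.387). The second probe set of Clu had 0.14 and that of Tbxas1 had -0.16, and that of Gng11 was at the floor on every array.

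Of the 3 that fell in marrow, Selp averaged 7.28 ± 0.90 in SP and 9.62 ± 0.66 in MP cells, a difference of -2.34 ± 0.39 (adjusted p = 7.25e-05). It was at the floor on 3 of 5 marrow SP arrays, so this difference is understated. F5 fell by 1.99 ± 0.28 (adjusted p = 1.02e-05) and Cd9, a tetraspanin of platelets and many other cells, by 0.93 ± 0.23 (adjusted p = 0.00366). The SP against MP changes of Selp and F5 thus had opposite signs in the 2 tissues, the reverse of F2r and F2rl3. The test of that difference gave 4.92 for Selp (adjusted p = 1.65e-06) and 2.88 for F5 (adjusted p = 2.42e-05), where 8.69% of all probe sets were called higher and 9.85% lower in it. Of the calls of that test 46.9% were higher, against 30.4% without further normalization and 62.2% with scaling to the median.

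**Figure D4:**
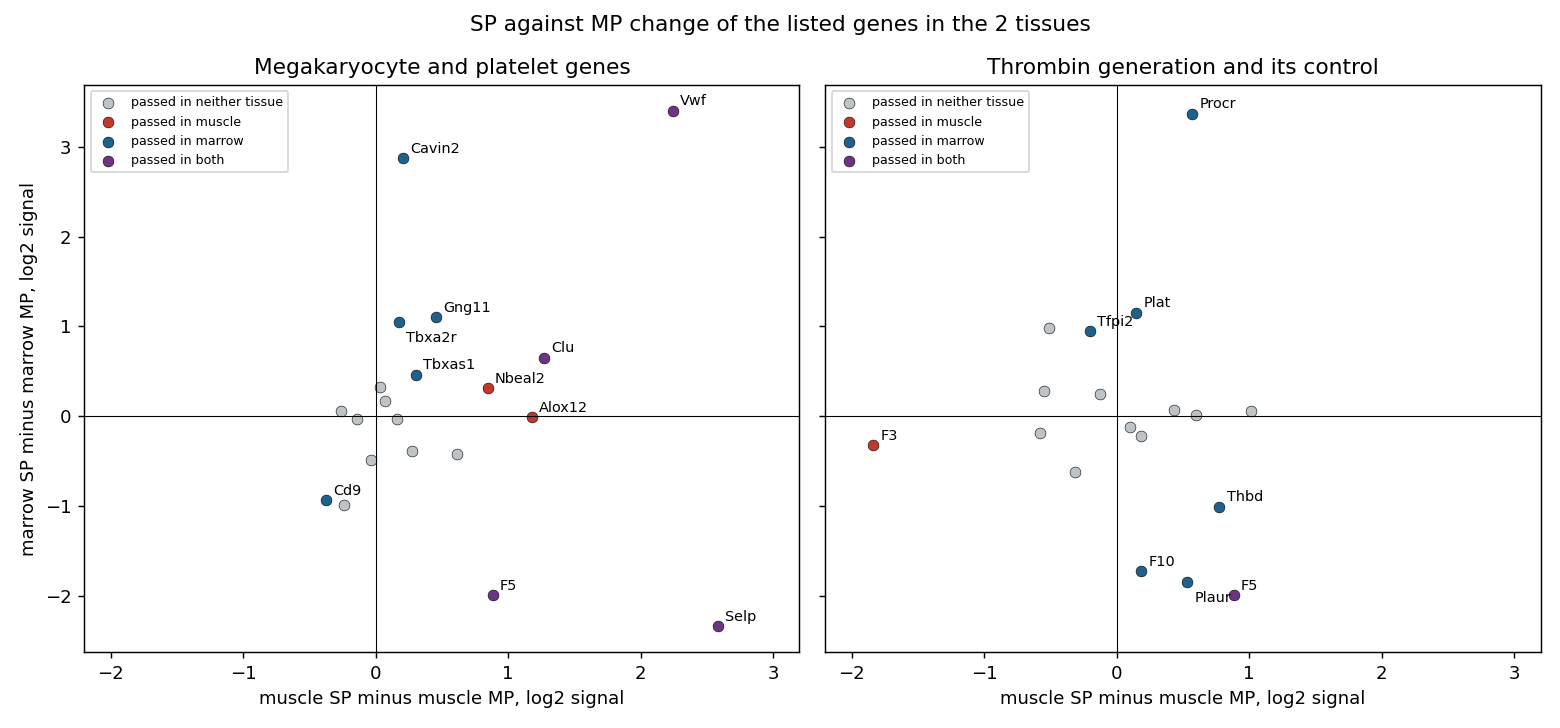
SP minus MP difference in log2 signal in muscle (x axis) and in marrow (y axis) for megakaryocyte and platelet genes (left) and genes of thrombin generation and control (right), 1 point a gene, coloured by the tissue in which it passed an adjusted p of 0.05. Vwf lies high in both tissues, Selp and F5 lie right and below 0, and Procr stands high in marrow.

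Between tissues, 7 of the 20 platelet genes were higher and 8 lower in muscle SP than in marrow SP cells, where 17.1% and 21.2% of all were. Selp (5.77 ± 0.39, adjusted p = 3.6e-11), Cavin2 (5.54 ± 0.44) and Vwf (4.06 ± 0.44) led the genes higher in muscle SP cells. Fermt3, an integrin activator of blood cells, was lower by 3.44 ± 0.25, Stxbp2 by 2.92 ± 0.38 and Vamp8 by 1.40 ± 0.24. The last 2 act in granule release, and the second probe set of Stxbp2 had -0.35 and did not pass (adjusted p = 0.404). In muscle MP against marrow MP cells 6 were higher and 9 lower, where 20.9% and 25.6% of all were. Cavin2 was higher by 8.20 ± 0.44 and Vwf by 5.22 ± 0.44, and F5 lower by 3.81 ± 0.28. Arrays at the floor understate the difference of Selp in SP cells and those of Cavin2, Vwf and F5 in MP cells. The genes higher in muscle came with 16 of 17 endothelial markers higher there in each population. In MP cells the remaining marker, Pecam1, was lower in muscle by 0.70 ± 0.27 (adjusted p = 0.0397). The summed endothelial signal was 169050 to 241203 in muscle SP and 11617 to 17740 in marrow SP arrays. How much of these differences comes from endothelial cells was not tested.

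The genes that make thrombin and hold it in check were read next. In muscle 1 of 18 rose and 1 fell, where 5.1% and 6.64% of all probe sets did. The gene that fell was F3, tissue factor, the trigger of coagulation, by 1.84 ± 0.19 (adjusted p = 1.07e-06), and F5 was the one that rose. F2, the gene of prothrombin itself, was at the floor on all 20 arrays, as were F9 and the antithrombin gene Serpinc1. In marrow 3 of 18 rose and 4 fell, where 15.4% and 14.8% of all probe sets did. Procr, the endothelial protein C receptor and a marker of blood stem cells, averaged 12.41 ± 0.32 in marrow SP and 9.04 ± 0.24 in marrow MP cells, a difference of 3.37 ± 0.24 (adjusted p = 8.37e-10). Plat, tissue plasminogen activator, rose by 1.15 ± 0.18 (adjusted p = 3.6e-05) and Tfpi2, a protease inhibitor, by 0.95 ± 0.25 (adjusted p = 0.00655), both dim: with the floor at the 40th percentile the differences were 0.15 (adjusted p = 0.478) and 0.21 (0.539). Besides F5, Plaur, the urokinase receptor, fell by 1.84 ± 0.24 (adjusted p = 3.5e-06) and F10, factor X, by 1.73 ± 0.28 (adjusted p = 5.88e-05). Thbd, thrombomodulin, which binds thrombin on endothelium, fell by 1.00 ± 0.27 (adjusted p = 0.0067), a call that was lost without further normalization (-0.51, adjusted p = 0.167) and with the higher floor (-0.05, 0.936).

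In muscle SP against marrow SP cells 9 of these 18 genes were higher and 4 lower, where 17.1% and 21.2% of all probe sets were. Plat (5.03 ± 0.18), Thbd (4.75 ± 0.27) and Pros1, protein S (3.94 ± 0.24) were the most raised, and F10 was lower by 2.38 ± 0.28. In muscle MP against marrow MP cells 9 were higher and 6 lower, where 20.9% and 25.6% of all probe sets were. Among these genes were Plat (6.03 ± 0.18), Procr (4.03 ± 0.24) and F10 (-4.28 ± 0.28). Pros1 was at the floor on all marrow MP arrays, so that its log2 difference of 4.77 is at least that size.

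The receptors signal through G proteins, among them Gq and G12/13, to phospholipase C and integrins. Of 34 genes of these steps 5 rose and 4 fell in muscle, where 5.1% and 6.64% of all probe sets did. Arrb1, an arrestin (1.39 ± 0.22, adjusted p = 0.000201), and Rgs2, which limits Gq signalling (0.97 ± 0.17, adjusted p = 0.000543), were higher in SP cells. Apbb1ip, the integrin adaptor RIAM, fell by 1.27 ± 0.24 (adjusted p = 0.00101), Prkcq, protein kinase C theta of platelets and T cells, by 0.95 ± 0.21 (adjusted p = 0.00401) and Vasp, an actin regulator, by 0.86 ± 0.20 (adjusted p = 0.00647; 0.094 with the GAPDH ratio as a covariate). Arrb1 had 0.09 on its second probe set. Gnaq, the Gq alpha chain, rose by 0.78 ± 0.24 (adjusted p = 0.0395) and Plcg2, a phospholipase C, by 0.95 ± 0.29 (adjusted p = 0.0347), and Akt2, a kinase, fell by 1.28 ± 0.35 (adjusted p = 0.0187). Gnaq lost its call without muscle SP replicate 1, 3 or 4 or muscle MP replicate 1, 3 or 4 (0.64 to 0.79, adjusted p = 0.0618 to 0.111) and with the GAPDH ratio as a covariate (0.70, 0.171). Plcg2 lost it without muscle SP replicate 2, 4 or 5 or muscle MP replicate 2, 3 or 5 (0.80 to 0.94, adjusted p = 0.0686 to 0.099), and Akt2 without muscle MP replicate 2 (-1.04, 0.0654) or 4 (-1.08, 0.0662). With the floor at the 40th percentile all 3 calls were lost, at 0.12 for Gnaq (adjusted p = 0.608), 0.39 for Plcg2 (0.294) and -0.46 for Akt2 (0.31).

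In marrow 4 of the 34 signalling genes rose and 11 fell, where 15.4% and 14.8% of all probe sets did. The list's median was -0.21 against 0.02 for all tested. Prkcq rose by 1.45 ± 0.21 (adjusted p = 1.52e-05), so that its signs were those of F2r in both tissues; the difference between tissues was -2.40 (adjusted p = 6.5e-06). Gna13, a G13 alpha chain, rose by 1.06 ± 0.18 (adjusted p = 0.000124), but its other probe set had -0.36 and scaling to the median ended the call (0.46, adjusted p = 0.0813). Rgs10, which limits Gi signalling, rose by 0.70 ± 0.21 (adjusted p = 0.0145), a call lost without marrow SP replicate 4 (0.54, 0.0512) and with the GAPDH ratio as a covariate (0.63, 0.0787). Prkcb, protein kinase C beta, fell by 1.51 ± 0.28 (adjusted p = 0.000233), Grk5, a receptor kinase, by 1.35 ± 0.28, Akt2 by 1.34 ± 0.35 and Vasp by 1.24 ± 0.20. Between tissues 8 were higher and 13 lower in muscle SP than in marrow SP cells, where 17.1% and 21.2% of all probe sets were. Gng11 was higher by 3.38 ± 0.26 and Apbb1ip lower by 3.61 ± 0.24. In MP cells 8 were higher and 16 lower in muscle, where 20.9% and 25.6% of all probe sets were. The log2 difference of muscle MP minus marrow MP was 4.03 ± 0.26 for Gng11 and -3.88 ± 0.28 for Prkcb. Gna11 was at the floor on all marrow arrays and at least 3.13 higher in muscle SP and 3.22 higher in muscle MP cells.

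Of 18 transcription factors of megakaryocytes and red cells, 8 rose and 2 fell in marrow SP cells, with a median of 0.49. Of all probe sets 15.4% rose and 14.8% fell there. Meis1 rose by 3.53 ± 0.27 (adjusted p = 2.84e-09), Tal1 by 2.72 ± 0.28 (adjusted p = 1.8e-07), Lmo2 by 1.95 ± 0.21 (adjusted p = 2.53e-07) and Gata2 by 1.60 ± 0.29 (adjusted p = 0.000196); these 4 are also factors of blood stem cells, and second probe sets of Lmo2 and Gata2 had 0.21 and 0.32. Ets1 fell by 1.50 ± 0.28 (adjusted p = 0.000269) and Mafg by 0.82 ± 0.18 (adjusted p = 0.00161). In muscle 1 of 18 rose and 1 fell, where 5.1% and 6.64% of all probe sets did. Zfpm1, a partner of GATA factors, rose by 0.88 ± 0.24 (adjusted p = 0.0188) and Cbfb, the partner of Runx1, fell by 0.75 ± 0.24 (adjusted p = 0.0455). Zfpm1 lost its call without muscle MP replicate 5 (0.67, 0.0614) and with the GAPDH ratio as a covariate (0.58, 0.23). Cbfb lost it without any 1 of 12 arrays, muscle SP replicates 2 to 5, muscle MP replicates 1, 2, 3 and 5, marrow SP replicates 2 and 3 and marrow MP replicates 1 and 3 (-0.79 to -0.61, adjusted p = 0.0504 to 0.13). It also lost it without further normalization (-0.43, adjusted p = 0.388) and with arrays scaled to the same median (-0.50, 0.349). In muscle SP against marrow SP cells 2 were higher and 9 lower, where 17.1% and 21.2% of all probe sets were. Myb was lower by 6.52 ± 0.45, Nfe2, the factor of platelet formation, by 5.55 ± 0.29 and Meis1 by 3.99 ± 0.27. In MP cells 2 were higher and 8 lower in muscle, against 20.9% and 25.6% of all probe sets, and Nfe2 was lower by 6.23 ± 0.29.

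Markers of other cell types also differed between SP and MP cells, some with and some against the receptors, and are given here by tissue. The SP label was checked on Abcg2, the main dye pump of SP cells, which rose by 0.85 ± 0.25 in muscle SP (adjusted p = 0.028) and by 2.16 ± 0.25 in marrow SP cells (adjusted p = 7.32e-07). The muscle call was lost without muscle SP replicate 4 or 5 or muscle MP replicate 1, 2 or 4 (0.69 to 0.84, adjusted p = 0.0528 to 0.0789). It was also lost with the GAPDH ratio as a covariate (0.83, adjusted p = 0.106) and with arrays scaled to the same median (0.82, adjusted p = 0.0571). Of all probe sets 15.4% rose and 14.8% fell in marrow. In marrow SP cells, where F2r and F2rl3 were high, 13 of 15 blood stem and progenitor markers rose and 0 fell. Their summed signal was 42177 to 56691 in marrow SP arrays, against 13935 to 17656 in marrow MP arrays. There 14 of 18 T and NK cell markers rose as well, with sums of 62780 to 120229 in marrow SP and 6123 to 10025 in marrow MP arrays. Of 17 endothelial markers 9 rose and 0 fell there, with a median of 0.78, and their sums were 11617 to 17740 in marrow SP and 5890 to 6895 in marrow MP arrays; Nos3 was at the floor on all arrays of both, and Tek, Tie1, Cldn5 and Ptprb on all marrow MP arrays. Of 13 fibroblast markers 3 rose and 1 fell (4609 to 14453 in marrow SP, 3800 to 5598 in marrow MP). Of 11 erythroid markers 4 rose and 1 fell (47407 to 97503 in marrow SP, 28424 to 36986 in marrow MP), all 11 B lineage markers fell (32843 to 42297 in marrow SP, 88766 to 118756 in marrow MP), and 9 of 17 granulocyte markers fell (113475 to 276564 in marrow SP, 416357 to 468101 in marrow MP). Of 14 monocyte and macrophage markers 6 fell (26513 to 80208 in marrow SP, 128738 to 144590 in marrow MP). The platelet list itself summed to 53784 to 62737 in marrow SP and 60750 to 71778 in marrow MP arrays. The part of any of these cells in the marrow differences of F2r, F2rl3, Vwf or Cavin2 was not tested.

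In muscle SP cells, where F2r and F2rl3 were low, fibroblast, macrophage and satellite cell markers were low too. Of all probe sets 5.1% rose and 6.64% fell in muscle. Of 13 fibroblast markers 8 fell and 0 rose, with sums of 78298 to 127260 in muscle SP and 207489 to 317604 in muscle MP arrays. Lum fell by 2.38 ± 0.30 (adjusted p = 1.09e-05). Of 14 monocyte and macrophage markers 10 fell (5619 to 16432 in muscle SP, 27762 to 35713 in muscle MP). Of 8 satellite cell markers 5 fell (3715 to 4876 in muscle SP, 9994 to 11582 in muscle MP), with Fgfr4 lower by 3.74 ± 0.15 (adjusted p = 1.13e-13). T and NK cell markers went the other way, with 7 of 18 higher and sums of 6357 to 58146 in muscle SP, against 2655 to 3712 in muscle MP arrays; Cd3e and Cd3g were at the floor on all arrays of both. Of 15 blood stem and progenitor markers 2 rose and 1 fell in muscle, with a median of 0.04. Of 11 B lineage markers 1 rose and 4 fell, of 11 erythroid markers 1 rose and 0 fell, and of 17 granulocyte markers 0 rose and 0 fell. Endothelial markers in muscle are given above. The part of any of these cells in the muscle differences of F2r and F2rl3 was not tested.

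RNA quality also moved with the populations. The log2 ratio of the 3-prime to the 5-prime GAPDH control probe set, which is higher where RNA is degraded or amplified short, averaged 3.83 ± 0.61 in muscle SP and 2.66 ± 0.62 in muscle MP cells, and 3.72 ± 0.60 in marrow SP and 2.67 ± 0.72 in marrow MP cells. It was higher in SP than in MP cells of both tissues. With this ratio as a covariate the SP minus MP difference was -1.95 in muscle and 2.35 in marrow for F2r, and -2.32 in muscle and 1.99 in marrow for F2rl3. The arrays' median deposited signal ran from 318 to 612, and arrays of a group correlated at r = 0.911 to 0.981.

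The probe sets most like each member over the 20 arrays were listed by Pearson's r among all kept probe sets with 1 symbol. For F2r they were Gar1 (0.86), Cct7 (0.86), both probe sets of Prkcq (0.85 each) and Lsm7 (0.85). For F2rl3 they were Pdrg1 (0.85), Sod1 (0.82), Cct7 (0.82), Gar1 (0.81) and F2r (0.79), so that Gar1 and Cct7 stood on both lists. For Gp9 they were Cited2 (0.83), Tuba4a (0.81), Tbk1 (0.81), Ppig (0.80) and Notch2 (0.78), and for Pf4, whose values were mostly at the floor, Sntb1 (0.88), Cd86 (0.86), Amh (0.86), Afp (0.85) and Pign (0.82). After each group's mean was removed, r ran from 0.295 (Lsm7) to 0.66 (Cct7) for F2r and from 0.36 (F2r) to 0.90 (Pdrg1) for F2rl3. For Gp9 it ran from 0.52 (Notch2) to 0.70 (Ppig) and for Pf4 from 0.69 (Afp) to 0.78 (Sntb1). The 4 group levels enter the values without that step, and RNA quality shared on an array enters both. All are given as a description.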

How the data were processed

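Expression was measured by the authors with Affymetrix arrays, 1 array for each of 20 sorted cell samples. The deposited table gives linear intensity for each probe set and array. Its values had been scaled by the authors to a common trimmed mean, 1501 on every array as computed here. Software and background handling: not given in the sources used here. No value lay below 0.

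Of 12488 probe sets 66 controls were left out. Gene names came from the platform's probe-to-gene table (10833 probe sets with 1 symbol, 396 with several, 1193 with none) and were checked by gene ID against RefSeq, which changed 0 symbols. Since log2 array medians spanned 0.943, arrays were quantile normalized, which removes any overall difference in RNA content. Values under the 25th percentile (104.8) were set to it, and probe sets above it on at least 5 of 20 arrays were kept, 10310 in all. The floor shrinks differences of dim genes.

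A linear model over all 4 groups was fitted in limma 3.58.1 (R 4.3.3), after a check on simulated data. Tests were two-sided with Benjamini-Hochberg adjustment over all 10310 probe sets and a threshold of 0.05. Intervals are 95%. "Rose" and "fell" are of SP against MP cells. Plots used matplotlib 3.10.9 (Python 3.11.15).

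The members and gene lists were chosen with earlier results of these data known. The rule for named genes was every member and partner, and from each list the genes past the threshold with the largest changes each way; likeness was ranked by Pearson's r. A gene with several probe sets was represented by the brightest. Probe sets with the suffix _f, _g, _i or _s can bind related transcripts; among the genes named these include Itgav, Cavin2, Meis1, Myb, Arrb1, Rgs10 and Vamp8. The number of arrays, 5 a group, limits the precision. Alternatives covered the normalization, floor, filter, moderation, array weights, samples in the fit, RNA quality, a replicate block and each array left out.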

Additional observations from a re-analysis of the deposited data

Results flagged for a closer look

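Single arrays stood apart from the other 4 of their group in 23 of 224 sets of 5 arrays, where the gap to the nearest array passed 0.71 of the group's range. Chance gives about 1 in 20 for values without a floor. Where the other 4 arrays are at the floor, any value above it gives a gap of 1, so the count cannot be set against that rate. Such sets were Pf4 (6.77), Alox12 (6.76), F10 in muscle MP cells (6.8), Thbd in marrow SP cells (7.14) and Meis1 (7.31). Muscle SP replicate 1 was the high array for F2r 92267_at (9.28 against 8.78 for the next, a gap of 0.716 of the range), F2r 95313_at (0.878), Pf4 (1, as the only muscle SP array above the floor) and F10 (0.837). It also had the highest GAPDH 3-prime to 5-prime ratio of all 20 arrays. Pf4 was high in marrow SP replicate 1 (7.56 against 6.93, 0.747).

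Among the other genes, muscle SP replicate 3 was high for Nbeal2 (0.781) and low for Cd9 (0.922), and muscle SP replicate 5 was high for Meis1 (1). Muscle MP replicate 1 was high for Thbd (0.76), Gna13 (0.878) and F10 (1) and low for Cd9 (0.752), and muscle MP replicate 3 was high for Grk5 (0.814) and Ets1 (0.83). In marrow SP cells F2rl2 was low in replicate 1 (7.80 against 8.82, 0.934), Tbxa2r in replicate 3 (0.791) and Plaur in replicate 5 (0.778), and Thbd was high in replicate 4 (1). In marrow MP cells Alox12 (replicate 1, gap 1) and Cavin2 (replicate 2, 0.73) were high, and Stxbp2 (replicate 3, 0.77), Procr (replicate 4, 0.809) and Gp5 (replicate 5, 0.731) were low.

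The SP against MP difference of muscle minus that of marrow was -4.26 for both F2r 95474_at and F2rl3, and was not tested for these 2 genes. Where the test was run, genes whose SP against MP difference was higher in muscle than in marrow were Selp (4.92), F5 (2.88), Plaur (2.38), F10 (1.91), Plcg2 (1.82), Thbd (1.78), Gnaq (1.48), Grk5 (1.43), Arrb1 (1.35), Alox12 (1.19), Prkcb (1.14), Rgs2 (1.11) and Mafg (0.96), with adjusted p of 1.65e-06 to 0.0473. Those lower in muscle were Meis1 (-3.67), Procr (-2.80), Itgav (-2.71), Cavin2 (-2.67), Prkcq (-2.40), Tal1 (-2.25), Gata2 (-1.64), F3 (-1.52), Lmo2 (-1.36), Tfpi2 (-1.15) and Plat (-1.0), with adjusted p of 8.34e-07 to 0.0287.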

How the results depend on the processing

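Over the 33 alternatives F2r 95474_at kept its signs, at -1.95 to -1.28 in muscle and 2.22 to 2.95 in marrow (SP minus MP), and so did F2rl3, at -2.32 to -1.35 and 1.99 to 2.75. The marrow difference of F2r 92267_at ran from -0.47 to 0.09, and those of Gp9 from -0.15 to 0.49 in muscle and -0.68 to 0.17 in marrow. Of the platelet genes 3 passed in muscle when only the muscle arrays were fitted, against 6; leaving out 1 array each gave 4 to 6 in muscle and 7 to 11 in marrow (9 with all arrays). Gp5 changed sign in marrow to 0.53 without further normalization, to 0.057 with arrays scaled to the same median, and to 0.02 to 0.12 without marrow SP replicate 2 or marrow MP replicate 1, and in muscle to -0.12 with the GAPDH ratio as a covariate. F2rl2 changed sign in marrow to -0.30 with that covariate, to -0.089 without the 3 arrays of highest ratio, and to between -0.0727 and -0.0042 without marrow SP replicate 4 or marrow MP replicate 4 or 5 (-0.0564 for the last), with 0.27 as the highest value when an array was left out. The deviations of same-numbered samples from their group means correlated at a mean of 0.11 between SP and MP cells of muscle (lowest 0.069) and 0.02 of marrow (lowest -0.14), and at 0.19 between muscle and marrow SP cells (lowest 0.048) and 0.16 between muscle and marrow MP cells (lowest -0.091). Differently numbered samples correlated lower, at means of -0.026, -0.006, -0.043 and -0.039 in the same order. In these 4 pairings 0, 1, 2 and 3 of 5 samples correlated best with their own number. The main fit did not pair the samples by number. With the replicate number as a block 1396 probe sets passed in muscle, against 1211, and 3331 in marrow, against 3113. All counts of probe sets called stayed within 1.5 times under the alternatives run. Values at the floor limit Pf4 and F2r 95313_at, whose folds cannot be sized here, and 5 arrays a group leave a standard error of 0.33 on F2r and 0.55 on F2rl3.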
